A study of Rattus norvegicus with 24 samples.

Results

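Ribosome footprints were compared between the brains of 3 old rats, aged 24 months, and 3 young rats, aged 6 months. Footprints are the pieces of mRNA that ribosomes shield from RNase I, so their count on a transcript follows how many ribosomes were translating it. Brain was homogenised, ribosomes were pelleted after RNase I digestion, and the protected fragments were sequenced, per the labels' protocols. RNA-seq of the same animals and both assays in liver made up the rest of the series, which held 24 libraries in 8 groups. The 2 brain groups differed in the labels by age alone. The labels do not state strain, sex or brain region, and each library came from 1 animal by its title.

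Of the 22938 transcripts in each file, 22151 were retained here and 787 were left out. A transcript was left out when its mean level in young liver RNA-seq was at least 10 times its mean in young brain RNA-seq plus 0.05 (CPM, counts scaled to library size; the 0.05 was added to the brain mean before the multiplication), because liver transcripts were present in old brain libraries. This rule used neither the old animals nor any footprint library. Of the retained transcripts, 6336 had 0 footprint counts in all 6 brain libraries, 2635 had counts but did not pass the filter on low counts, with a median of 11 and a maximum of 461 counts over the 6 libraries, and 13180 were tested. A transcript could pass the filter on low counts through 1 age group alone. The files name transcripts by identifier only, and 0 of the 22938 identifiers were found in the rat gene table used for names (assembly GRCr8). Gene names, functions and sequences are therefore not given, and cell type markers could not be read.

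Translation of an mRNA can change because the mRNA becomes more or less abundant, or because each copy is read by more or fewer ribosomes. Footprint counts hold both contributions, and set beside RNA-seq they show which share of a change the transcript level carries. In brain tissue, a lower footprint level from fewer cells of a type and one from fewer footprints per cell cannot be told apart.

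Footprint libraries held 5259326, 15618747 and 8955705 counts in old animals 1, 2 and 3, against 12932497, 5652238 and 9595157 in young animals 1, 2 and 3. Counting error is thus largest for old animal 1 and young animal 2. Brain identity was checked through transcripts at least 10-fold higher in young brain than in young liver RNA-seq. They took 33.1% to 35.7% of counts in the 6 brain footprint libraries, against 0.589% to 0.881% in the liver footprint libraries. The left-out liver-enriched transcripts took 0.927%, 4.25% and 0.838% of counts in old animals 1, 2 and 3, against 0.692%, 0.595% and 0.614% in young animals 1, 2 and 3 (exact permutation test, two-sided p = 0.1, the smallest that 3 against 3 allows). Every old library lay above every young one, and old animal 2 stood apart.

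Footprints were called changed for a small part of the retained transcripts. Of 13180 tested, 90 rose and 125 fell in old brain (edgeR quasi-likelihood test, adjusted p under 0.05), which is 1.63% of those tested, 0.683% higher and 0.948% lower. Without adjustment, 1773 of the 13180 had a p under 0.05 in this test, 871 of them higher, so the calls do not measure how many changed. The called rises were fewer and larger than the called falls. Their median log2 fold change was 0.60, and 21 of the 90 reached 2-fold. The falls had a median of -0.37, 3 of the 125 reached 2-fold and 111 stayed under 1.5-fold. Transcripts that fell were also the more abundant ones, with a median average level of 7.70 log2 CPM, against 5.80 for those that rose and 4.61 over all tested. The median SE was 0.0764 for the falls and 0.137 for the rises, so smaller changes could be called among the falls. At an average of at least 6 log2 CPM, where 108 of the falls lay, the 40 rises had a median of 0.39. The part of level and error in the difference of size was not tested. Of these 215 transcripts, 0 shared their whole row of counts with another transcript.

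Over all tested transcripts the 2 directions were balanced: 6578 (49.9%) had a log2 fold change above 0 and 6602 (50.1%) below, and the median was -0.000602. The log2 fold changes stood at -0.16 at the 25th and 0.18 at the 75th percentile, and at -0.44 and 0.63 at the 5th and 95th. In 2476 transcripts, 18.8% of those tested, the old libraries did not overlap the young ones, with 1159 (8.79%) higher and 1317 (9.99%) lower in old brain. All 215 called transcripts were among them. A stricter threshold, an adjusted p under 0.01, left 14 higher and 28 lower, and a looser one of 0.1 gave 167 and 214.

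**Figure D1:**
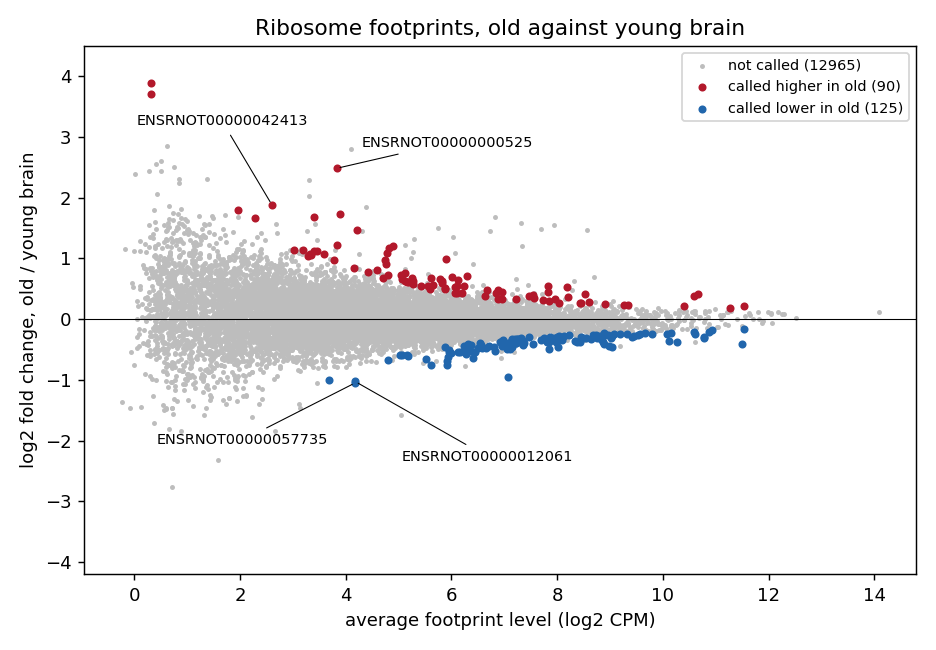
Log2 fold change of footprints (vertical axis, old over young brain) against the average footprint level (horizontal axis, log2 CPM) for the 13180 tested transcripts, one point each. The 90 called higher (red) reach larger changes than the 125 called lower (blue), and calls of small size sit at high levels. The vertical axis leaves out 3 points, 0 of them called.

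The counts of calls rested on the set of libraries. Without old animal 1 there were 49 calls, without old animal 3 there were 107, and without young animals 2 and 3 there were 31 and 44. Without old animal 2, the library with the most liver transcripts, 87 rose and 120 fell, and 144 of these 207 calls were among the 215. Without young animal 1 the number was 305. With the spread estimated over all 12 footprint libraries of both organs, 4 transcripts were called, 3 higher and 1 lower, and 2 of them were among the 215. DESeq2 called 353.

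**Figure D2:**
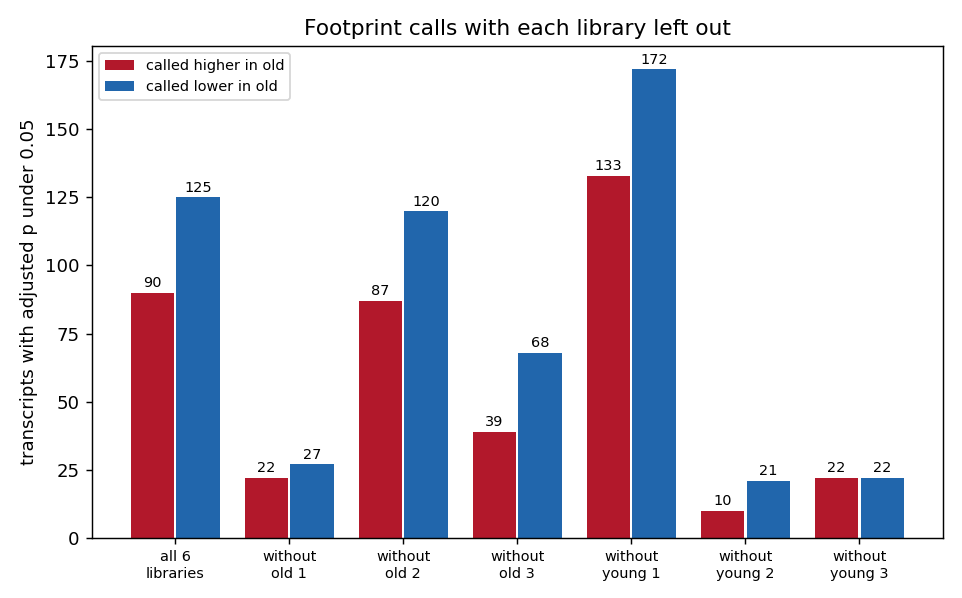
Number of retained transcripts called higher (red) and lower (blue) in old brain footprints, with all 6 libraries and with each library left out in turn (horizontal axis). Calls fall to 10 higher and 21 lower without young animal 2, and stay at 87 higher and 120 lower without old animal 2.

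The largest called rise among transcripts with an average level of at least 2 log2 CPM was that of ENSRNOT00000000525. It had 23.0, 29.5 and 18.4 CPM in old animals 1, 2 and 3, against 3.48, 3.53 and 5.61 CPM in young animals 1, 2 and 3, from 122, 445 and 167 counts against 45, 20 and 54. All old values lay well above all young ones, and old animal 2 was highest. The log2 fold change was 2.48 (SE 0.266, edgeR adjusted p = 8.88e-06), a 5.59-fold rise.

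Its RNA rose as well. In brain RNA-seq, ENSRNOT00000000525 had 6.13, 9.84 and 4.69 CPM in old animals 1, 2 and 3, against 1.91, 1.94 and 1.54 CPM in young animals 1, 2 and 3 (log2 fold change 1.93, SE 0.279, edgeR adjusted p = 0.0325). The RNA-seq call was lost without old animal 1, young animal 2 or young animal 3 (edgeR adjusted p = 0.103, 0.156 and 0.132). Footprints relative to RNA changed by 0.58 on the log2 scale (SE 0.405, edgeR adjusted p = 0.844), which did not pass. In young RNA-seq this transcript averaged 9.49 CPM in liver and 1.79 CPM in brain, a ratio of 5.16 with 0.05 added to the brain mean, which is on the retained side of the rule. Its liver footprints stood at 23.5, 42.2 and 33.4 CPM in old animals 1, 2 and 3, against 19.4, 17.8 and 13.2 CPM in young ones (log2 fold change 0.98, SE 0.231, edgeR adjusted p = 0.176). Without old animal 2, the library richest in liver transcripts, the brain footprint log2 fold change was 2.28 (edgeR adjusted p = 4.82e-05). Old animals 1 and 3 also held larger shares of liver-enriched counts than every young library, given above. In brain RNA-seq the left-out transcripts took 0.717%, 3.05% and 0.695% of counts in old animals 1, 2 and 3. In young animals 1, 2 and 3 they took 0.601%, 0.528% and 0.529%. The part of liver transcripts in the rise was not tested. The footprint call held in all 16 alternative analyses run on this transcript, with log2 fold changes of 2.28 to 2.75.

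ENSRNOT00000042413 had the next largest called rise at that level, and footprints were nearly its sole reads. It had 65, 122 and 73 footprint counts in old animals 1, 2 and 3, against 46, 7 and 24 in young animals 1, 2 and 3. In CPM this was 12.3, 8.08 and 8.04 in old brains against 3.56, 1.24 and 2.49 in young brains. The old and young values did not overlap, and young animal 2 was lowest. The log2 fold change was 1.88 (SE 0.392, edgeR adjusted p = 0.013), a 3.69-fold rise.

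Brain RNA-seq held 2 reads of ENSRNOT00000042413 over 3 old brains and 0 over 3 young brains, and liver RNA-seq held 0 in all 6 libraries. The fit of footprints per RNA gave a log2 change of -0.44 for it (SE 0.416, edgeR adjusted p = 0.909), which rests on those 2 RNA reads, and no RNA fold change is given. Liver footprints were present, at 2.79, 5.0 and 6.07 CPM in old animals 1, 2 and 3, against 3.87, 1.73 and 2.83 CPM in young ones, and these overlapped. The undefined length-like value beside its counts was 25, against a median of 422 over all tested transcripts. The call was lost without old animal 1, young animal 2 or young animal 3, with edgeR adjusted p of 0.0995, 0.0929 and 0.0911.

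Among the transcripts called lower at that level, ENSRNOT00000057735 had the largest change. Its footprints stood at 8.29, 11.99 and 14.5 CPM in old animals 1, 2 and 3, against 15.8, 29.2 and 28.3 CPM in young animals 1, 2 and 3. The groups did not overlap, but old animal 3 and young animal 1 lay close together. The log2 fold change was -1.05 (SE 0.25, edgeR adjusted p = 0.0364).

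The RNA of ENSRNOT00000057735 overlapped between the ages, with 7.204, 9.27 and 9.73 CPM in old animals 1, 2 and 3, against 8.90, 11.01 and 11.7 CPM in young animals 1, 2 and 3 (log2 fold change -0.27, SE 0.146, edgeR adjusted p = 0.438). Its ratio of footprints to RNA had a log2 change of -0.75 (SE 0.333, edgeR adjusted p = 0.684). The transcript was nearly absent from liver, with 4 RNA-seq counts over the 3 old livers and 0 over the 3 young livers. Its footprint call was lost in 6 of 16 alternatives, among them leaving out old animal 1, old animal 2, young animal 2 or young animal 3 (edgeR adjusted p = 0.167, 0.056, 0.225 and 0.206).

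ENSRNOT00000012061 fell in footprints, and its RNA values overlapped between the ages. Its footprints stood at 11.7, 11.9 and 11.8 CPM in old animals 1, 2 and 3, against 20.0, 26.5 and 25.7 CPM in young animals 1, 2 and 3. The 3 old values were nearly equal and below every young value. The log2 fold change was -1.02 (SE 0.207, edgeR adjusted p = 0.0116).

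In brain RNA-seq, ENSRNOT00000012061 had 15.9, 14.1 and 17.3 CPM in old animals 1, 2 and 3, against 14.4, 13.2 and 14.3 CPM in young animals 1, 2 and 3. These overlapped, with a log2 fold change of 0.17 (SE 0.0997, edgeR adjusted p = 0.468). Footprints relative to RNA fell by 1.18 on the log2 scale (SE 0.206, edgeR adjusted p = 0.0448), and with the animal as a block by 1.16 (SE 0.233, edgeR adjusted p = 0.0271). This call was lost with median-ratio factors (edgeR adjusted p = 0.0517) and with each of the 6 animals left out in turn (edgeR adjusted p = 0.0651 to 0.379). Like ENSRNOT00000057735 it was nearly absent from liver, with 1 liver footprint count over 3 old and 0 over 3 young animals. The footprint call was lost without old animal 1, young animal 2 or young animal 3 (edgeR adjusted p = 0.0513, 0.0793 and 0.0911).

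**Figure D3:**
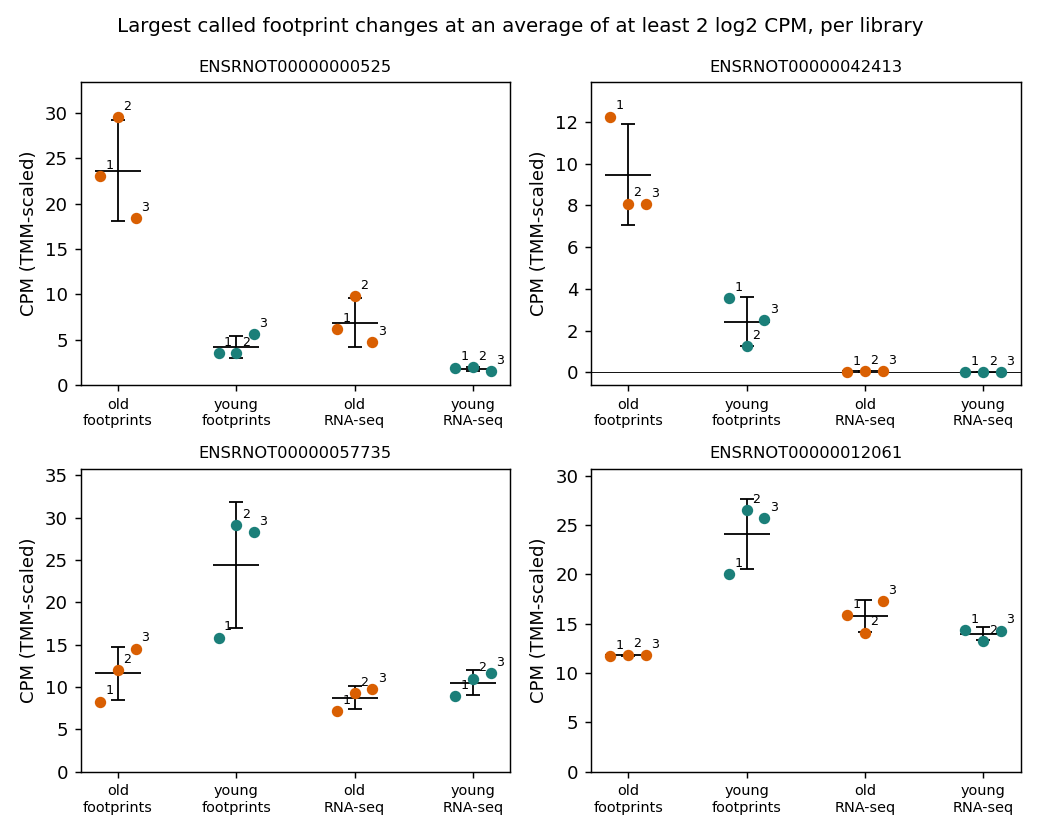
Levels of the 4 transcripts with the largest called changes among those with an average of at least 2 log2 CPM (vertical axes, TMM-scaled CPM, each from 0) in footprints and RNA-seq of old (orange) and young (green) brain. Points are libraries with their animal number, and bars show mean ± SD (n = 3). ENSRNOT00000000525 is higher in old brain in both assays, ENSRNOT00000012061 is lower in footprints while its RNA-seq values overlap, and ENSRNOT00000042413 is near 0 in RNA-seq.

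The organ classes were unevenly filled among the calls, and no test was made of these shares. Of the 125 that fell, 82 were brain-enriched (65.6%), meaning at least 10 times higher in young brain than in young liver RNA-seq. Of the 90 that rose, 18 were (20%), against 23.9% of all tested transcripts. Among 3146 brain-enriched transcripts, 2.61% fell and 0.572% rose, and among the 10034 others 0.429% fell and 0.718% rose. Without old animal 2, 74 brain-enriched transcripts fell and 17 rose. The median brain-enriched transcript lay below the young mean by a log2 difference of -0.05, -0.07 and -0.04 in old animals 1, 2 and 3, against 0.00, 0.00 and 0.01 in young animals 1, 2 and 3. Young values lie near 0 by construction and do not measure the spread between animals. The old libraries also held larger shares of liver-enriched counts, given above. The part of that in the falls was not tested.

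Calls were concentrated at high footprint levels, where the error is smaller. At an average of at least 6 log2 CPM, 108 of 3284 transcripts fell and 40 rose, which is 3.29% and 1.22%, and the median SE of the log2 fold change was 0.0921. Between 4 and 6 log2 CPM, 16 of 4712 fell and 32 rose (median SE 0.165). Between 2 and 4 log2 CPM, 1 of 3581 fell and 15 rose (median SE 0.297). Between 0 and 2 log2 CPM, 3 of 1595 rose and 0 fell by edgeR, and these rises had a median of 3.71 log2. The median SE in that class was 0.608, so a 2-fold change lay within 2 standard errors there. A fall of the usual size, -0.37, was not detectable at low levels.

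Transcripts also differed by the length-like value that stands beside the counts and is the same in every file. In the tercile with the lowest values, up to 303, 58 of 4400 transcripts rose (1.32%) and 22 fell (0.5%). In the tercile with the highest values, from 580, 11 of 4383 rose (0.251%) and 49 fell (1.12%). The middle tercile had 21 rises (0.478%) and 54 falls (1.23%) of 4397. Over all tested transcripts the shares were 0.683% and 0.948%. The median SE was 0.217, 0.200 and 0.153 from the lowest to the highest tercile, and its part was not tested. Over all transcripts of the lowest and highest tercile, called or not, the median log2 fold changes were 0.03 and -0.02. Without old animal 2 the lowest tercile had 41 rises and 20 falls, and the highest 22 and 54. With the trend along this value removed from each library, 64 transcripts rose and 117 fell in all, and 164 of these 181 were among the 215.

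Transcripts rich in footprints per RNA read were called more often. In the tercile with the highest ratio of footprints to RNA over all 12 brain libraries, 54 rose (1.23%) and 70 fell (1.59%) of 4393. The middle tercile had 22 rises (0.501%) and 34 falls (0.774%) of 4393. The lowest had 14 rises (0.319%) and 21 falls (0.478%) of 4394. The shares over all tested transcripts were 0.683% and 0.948%. The median SE of the log2 fold change ran the opposite way, at 0.164, 0.178 and 0.228 from the highest to the lowest tercile, and its part in the order was not tested.

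**Figure D4:**
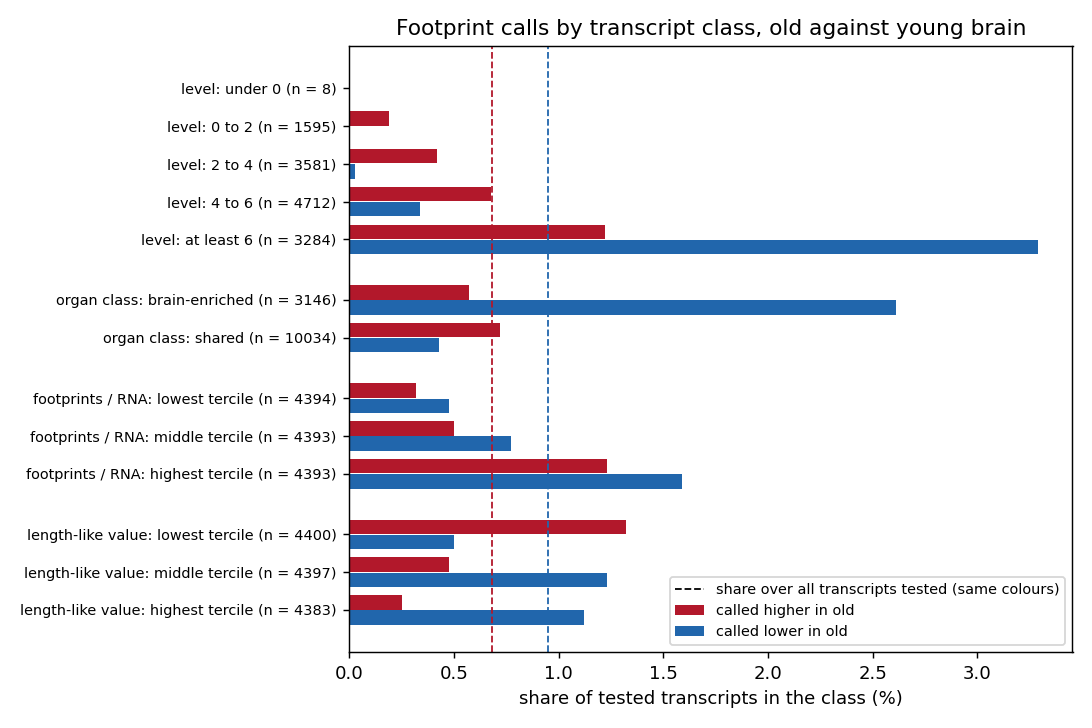
Share of tested transcripts called higher (red) and lower (blue) in old brain footprints (horizontal axis, percent), by average footprint level in log2 CPM, organ class, ratio of footprints to RNA, and length-like value. Dashed lines mark the shares over all 13180 tested, 0.683% higher and 0.948% lower. Falls stand out among abundant and brain-enriched transcripts, and rises at the lowest length-like values.

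Log2 fold changes ran with the liver-to-brain ratio even among the retained transcripts. The median was -0.05 where young liver RNA-seq was under 0.1 of young brain, 0.01 at 0.3 to 1, 0.09 at 1 to 3, 0.17 at 3 to 5 and 0.24 at 5 to 10. In the class of 5 to 10, which held 250 transcripts, 8 rose (3.2%) and 0 fell by edgeR (DESeq2 was not split by class). The class of 3 to 5 had 9 rises (2.86%) and 0 falls of 315. The shares over all tested transcripts were 0.683% higher and 0.948% lower, so few falls were to be had in classes of this size. At 5 to 10, the median level relative to the young mean was 0.17, 0.44 and 0.12 log2 in old animals 1, 2 and 3, against 0.05, -0.00 and 0.01 in young animals 1, 2 and 3. Old animal 2 was highest, and old animals 1 and 3 were also above every young library, though young values lie near 0 by construction. Without old animal 2 the median log2 fold change of this class was 0.14, with 5 rises and 0 falls. RNA-seq had a median of 0.22 in the same class. The ratio and the RNA-seq fold change both use the young brain RNA-seq libraries, so a low value there raises both. The young footprint libraries come from the same animals.

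The 10 retained transcripts nearest to the threshold, with ratios of 9.71 to 9.99, had a median log2 fold change of 0.41, against 0.56 for the 10 nearest left-out ones, with ratios of 10.01 to 10.4. Among the left-out transcripts 390 could be tested, 368 of them above 0, with a median of 0.98. When only transcripts were counted whose young liver level was below the young brain level plus 0.05 CPM, 62 rose and 122 fell. That stricter rule was chosen after the trend with the ratio had been seen.

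**Figure D5:**
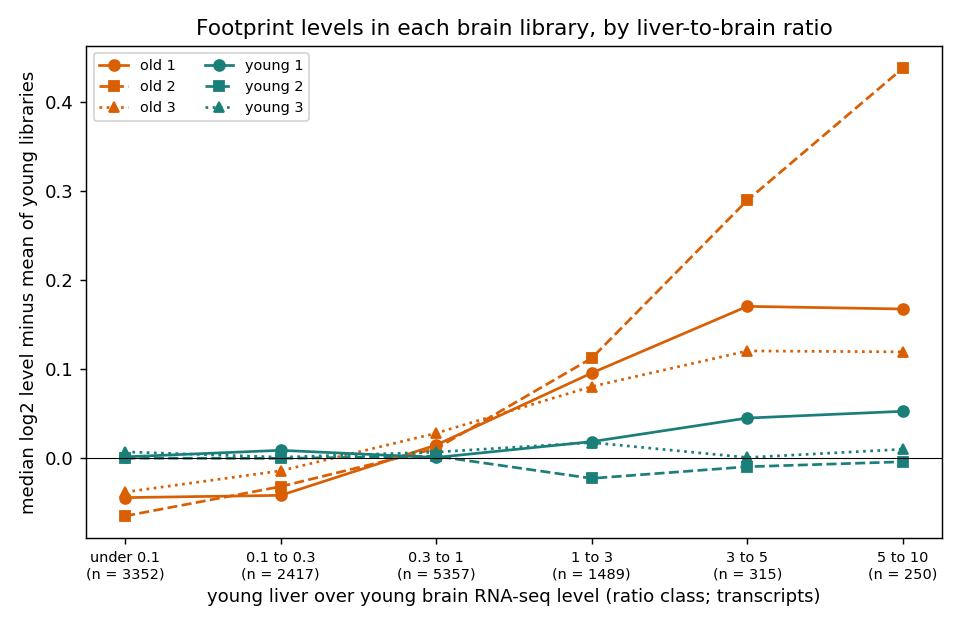
Median footprint level of retained transcripts in each brain library relative to the mean of the 3 young libraries (vertical axis, log2), by class of the young liver-to-brain RNA-seq ratio (horizontal axis). Old libraries (orange) lie below the young ones (green) at ratios under 0.3 and above them from 0.3 upward, narrowly so at 0.3 to 1. Old animal 2 is highest at 5 to 10, at 0.44. Young libraries lie near 0 by construction.

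RNA levels of the same transcripts were read from the brain RNA-seq libraries of the same 6 animals, which are other libraries but not other animals. Of the 90 with higher footprints, 87 could be tested in RNA-seq, 61 were above 0 and 13 were called higher. Their median log2 fold change was 0.19 in RNA-seq, against 0.58 in footprints of the same 87. Of the 125 with lower footprints, 116 were below 0 in RNA-seq and 8 were called lower, with medians of -0.16 in RNA-seq and -0.37 in footprints. Both sets were chosen by the footprint test, which favours large footprint values. The medians therefore do not measure the share of a change that the RNA carries. The edgeR age by assay interaction was called for 8 of the 90 and 1 of the 125. Over all tested transcripts, 46.9% were above 0 in RNA-seq. The RNA-seq test by itself called 41 higher (0.301%) and 22 lower (0.162%) of 13611 retained transcripts, or 0.463% in all. That number was 1 without young animal 2 or young animal 3, 2, 6 and 9 without old animals 1, 2 and 3, and 1104 without young animal 1.

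Footprints relative to RNA changed for 12 of 14125 retained transcripts, or 0.085%, with 11 higher (0.0779%) and 1 lower (0.00708%) in old brain (edgeR age by assay interaction, adjusted p under 0.05). ENSRNOT00000012061 was the lower one. The 11 had log2 changes of 0.37 to 1.82, with a median of 0.96. In the fits of each assay alone, their footprints had a median log2 fold change of 0.91 and their RNA -0.07. Those fits use the same libraries by which the 11 were chosen, so their medians are a description and not added evidence. In RNA-seq 0 of the 11 were called by edgeR. They had few footprints for their RNA, with a median ratio of 0.119 against 0.919 over all tested, and low length-like values, with a median of 133 against 415. With the animal as a block 27 were higher and 4 lower, and the 12 were among these 31. The 12 fell to 4 higher and 0 lower with median-ratio scaling, and to 0 without old animal 1, old animal 3, young animal 2 or young animal 3, where edgeR gave 756 to 964 transcripts at an unadjusted p under 0.05, against 1030 with all animals. Without old animal 2 and young animal 1 the numbers were 6 and 2, and DESeq2 called 64.

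The effect of age on footprints was tested against that in liver with the age by organ interaction. Of 13685 retained transcripts, 2 passed, or 0.0146%, with 1 brain change above the liver change and 1 below it (0.00731% each), while 1373 had an unadjusted p under 0.05. ENSRNOT00000010238 had 43.2, 45.9 and 49.0 CPM in old brains 1, 2 and 3, against 52.6, 50.7 and 56.3 CPM in young brains, a log2 fold change of -0.21 that did not pass (edgeR adjusted p = 0.482). In liver it had 247, 121 and 324 counts in old animals against 6, 0 and 2 in young ones, and the brain change minus the liver change was -6.64 log2 (SE 0.608, edgeR adjusted p = 0.00079).

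The other was ENSRNOT00000009705, an abundant brain-enriched transcript. Its brain footprints stood at 523, 545 and 529 CPM in old animals 1, 2 and 3, against 630, 606 and 653 CPM in young animals 1, 2 and 3, and fell by 0.24 on the log2 scale (SE 0.0577, edgeR adjusted p = 0.0311). Its traces in liver, 2, 4 and 3 counts in old animals 1, 2 and 3 against 13, 38 and 48 in young ones, were lower by more, and the brain change minus the liver change was 3.07 log2 (SE 0.407, edgeR adjusted p = 0.0169). With the animal as a block the interaction of ENSRNOT00000009705 did not pass (edgeR adjusted p = 0.133), and that of ENSRNOT00000010238 did (edgeR adjusted p = 0.0352). Leaving out 1 animal moved the number of calls to between 0 and 31. It was 0 without young animal 3, with 1063 at an unadjusted p under 0.05, 1 without old animal 1 or young animal 2, and 20 to 31 without old animal 2, old animal 3 or young animal 1. DESeq2 called 247.

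Both signs occurred among the same transcripts in liver footprints. Of the 90 that rose in brain footprints, 78 could be tested in liver footprints, where 56 were above 0 and 0 were called by edgeR. Of the 125 that fell, 81 could be tested in liver, where 47 were below 0 and 34 above. Over all tested transcripts 52.6% were above 0 in liver. The liver test called 2 of the 10331 that could be tested there, so few calls were to be had in any set. These shares are a description, since the animals of the 2 organs are the same.

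The likeness of libraries overlapped within and between the ages. Across the 13180 transcripts, which are not independent, log2 CPM correlated at 0.966 to 0.983 between old libraries, 0.963 to 0.977 between young ones and 0.945 to 0.980 between the ages (Pearson's r). The leading principal component, with 37.8% of the variance, placed old animals 1, 2 and 3 at 32.4, 10.2 and 13.2, against -0.0381, -49.6 and -6.23 for young animals 1, 2 and 3. The ages did not overlap on it, and its ends were old animal 1 and young animal 2, the 2 libraries with the fewest counts. The SD of log2 CPM between animals had a median of 0.179 in old and 0.188 in young brain. The 10 most abundant retained transcripts took 6.09 ± 0.189% of counts in old and 5.74 ± 0.0793% in young libraries (SD, n = 3 each; exact permutation test, two-sided p = 0.1).

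Some transcripts had counts at one age alone. In 31 retained transcripts footprints were counted in each old library and in 0 of the young ones, with 3 to 35 counts over the old libraries. In 8 the reverse held, with 5 to 14 counts over the young libraries. Total depth was 29833778 counts over the old and 28179892 over the young libraries. Of the 31, 12 had a young liver RNA-seq mean at or above the young brain mean plus 0.05 CPM, and of the 8 this held for 0. At such trace levels the added 0.05 CPM weighs on the outcome. Among the 13180 tested transcripts, which are more abundant, 11126 lay below that mark, and the share over all retained transcripts was not taken. All 31 and all 8 were too low to be tested. Without asking for a count in each library, 53 retained transcripts had 0 counts over the young and at least 10 over the old libraries, up to 82, and 22 had 0 over the old and at least 10 over the young libraries, up to 31. Counts of this size cannot separate absence from a low level.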

How the data were processed

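The members and lists were chosen with earlier results of these data known. The deposited files hold whole-number counts per transcript identifier, not normalised, and an undefined length-like value of another unit (N/A for 3097 transcripts), per the files. Per the submitters' processing notes, Bowtie 1.0.0.0, TopHat2 2.0.10, DESeq and build rn4 were used, with no roles given. The annotation, counting rule, strand setting, multi-mapped reads and duplicates are not stated there, so transcripts with shared sequence are uncertain, and reads without molecular identifiers mean that counting errors are minimum errors.

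Counts were tested in R 4.3.3 by the robust two-sided quasi-likelihood test of edgeR 4.0.16 (TMM factors, filterByExpr with minimum count 10 and minimum total 15) on the whole table, with Benjamini-Hochberg adjustment over all transcripts tested, and retained transcripts were then counted. Age was tested over 6 libraries and interactions over 12. SEs derive from the F statistic, and levels are TMM-scaled CPM. The procedure was tested on simulated counts. Alternatives were DESeq2 1.42.0, limma-voom (limma 3.58.1), other scalings, filters and liver rules, a length correction, blocks and left-out libraries. Named transcripts had an adjusted p under 0.05 and an average of at least 2 log2 CPM, and were the 2 largest rises and 2 largest falls. The 2 transcripts of the organ interaction were named after their values were seen. The 15 gene lists and markers could not be applied without names. Brain libraries of one animal in both assays deviated together (r = 0.0918 to 0.254), less so brain and liver footprints (0.00524 to 0.0563), and titles carry the animal code, so blocking on the animal was tried for both interactions.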

Additional observations from a re-analysis of the deposited data

Results flagged for a closer look

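The effect of age on footprints was set apart between brain and liver in 3 transcripts, the last of them without passing the test of the difference. For ENSRNOT00000010238 the brain change minus the liver change was -6.64 log2, and for ENSRNOT00000009705 it was 3.07 log2, both past the threshold of the interaction test (edgeR adjusted p = 0.00079 and 0.0169). With the animal as a block ENSRNOT00000010238 still passed (edgeR adjusted p = 0.0352), and ENSRNOT00000009705 did not (edgeR adjusted p = 0.133). For ENSRNOT00000057735 every old library was below every young one in brain and above every young one in liver. Its liver footprints were 3, 4 and 3 counts in old animals against 1, 0 and 0 in young ones, the fitted difference of -4.11 log2 rests on these few counts, and the interaction did not pass (edgeR adjusted p = 0.184).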

How the results depend on the processing

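The number of 215 footprint calls stayed within 1.5 times under 13 of 20 alternatives. Among the 13 were the other liver rules (215, 198 and 184 calls) and the count with no transcript left out (232). These recounted the same fit over other sets of transcripts and were not new fits. The number was 353 with DESeq2, 339 with the replicate number as a block and 4 with the spread over all 12 footprint libraries, and 31 to 305 with 1 library left out. The replicate numbers mark different animals, and same-numbered old and young libraries did not deviate together (r = 0.016, 0.0025 and -0.022), so the block says nothing of pairing. In RNA-seq, the 63 calls became 267 with DESeq2, 269 with the replicate block, and 1 to 1104 with 1 library left out. For footprints per RNA, the 12 calls became 64 with DESeq2, 4 with median-ratio factors, 31 with the animal as a replicate block, and 0 to 6 with 1 animal left out. For the organ interaction, the 2 calls became 247 with DESeq2 and 0 to 31 with 1 animal left out, and remained 2 in number with the animal block. The cause was not tested. Of the named footprint calls, those of ENSRNOT00000042413 and ENSRNOT00000012061 were each lost in 4 and that of ENSRNOT00000057735 in 6 of 16 alternatives, and 0 reversed. Depth limits the low levels and the shallow libraries of old animal 1 and young animal 2.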

Other observations

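The largest fold changes of all were not called, and in each a single library held most of the counts. These transcripts were chosen after their values were seen. ENSRNOT00000015818 had 28, 351 and 15055 footprint counts in old brains 1, 2 and 3, against 10, 4 and 7 in young brains 1, 2 and 3. Old animal 3 stood far above every other library, old animals 1 and 2 also lay above every young one, and the log2 fold change of 9.54 did not pass (SE 3.45, edgeR adjusted p = 0.351). Its RNA-seq counts were 3, 12 and 8327 in old brains, against 6, 6 and 6 in young brains, so the same animal was high in both assays.

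ENSRNOT00000023412 had the same order among the old animals, and every old library lay above every young one in footprints. Its footprint counts were 72, 1077 and 20422 in old brains 1, 2 and 3, against 11, 30 and 12 in young brains 1, 2 and 3 (log2 fold change 8.60, SE 2.93, edgeR adjusted p = 0.329). Its RNA-seq counts were 5, 58 and 12645 in old brains, against 4, 8 and 23 in young brains. ENSRNOT00000056109 was high in young animal 2 alone, with 8, 5 and 2 footprint counts in old brains 1, 2 and 3, against 12, 619 and 17 in young brains 1, 2 and 3. In RNA-seq it had 10, 8 and 4 counts in old brains, against 10, 752 and 5 in young brains.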
